A study of Mus musculus with 20 samples.

Results

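The genes described here encode the constitutive proteasome: the subunits of its core and regulatory particle, the proteins that assemble or cap it, and a few relatives. They were chosen by name, as the symbols that begin with Psm, a letter from a to g and a digit, leaving out the immunoproteasome genes Psmb8, Psmb9 and Psmb10. The rule found 46 of the 23382 gene symbols of each library. By known role these are 7 alpha ring and 7 beta ring genes (together the 14 genes of the 20S core), 6 base ATPases, 3 other base subunits and 8 lid subunits (together the 17 genes of the 19S regulatory particle), 3 base assembly chaperones, 4 core assembly chaperones, 4 activators, the regulator Psmf1 and 2 tissue-restricted core subunits. The pattern also took in Psmc3ip, a meiotic recombination protein named for binding Psmc3, which is no proteasome subunit.

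The study sorted germinal centre B cells from mice by flow cytometry and sequenced their RNA in 20 libraries, 5 in each of 4 groups. Both gates were B220+ FAS+ GL7+. Centroblasts, which divide in the dark zone, were CXCR4+ CD86-, and centrocytes, which compete for T cell help in the light zone, were CXCR4- CD86+. From each gate, 5 libraries carried Cgamma1Cre +/- with Myd88L252P WT (the controls) and 5 carried Cgamma1Cre +/- with Myd88L252P +/- (the mutants), so both genotypes carry 1 copy of the Cre. Cgamma1-Cre is active in germinal centre B cells and their descendants, and L252P is the mouse form of a lymphoma-associated activating change in the adaptor protein Myd88. Whether each library had its own mouse is not stated, so the p-values here measure only the spread between these libraries. The age of the animals is not given in the sources used here.

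The proteasome degrades proteins that carry ubiquitin chains. Its barrel-shaped core stacks outer rings of alpha subunits, which gate the entry, on inner rings of beta subunits, of which Psmb5, Psmb6 and Psmb7 carry the active sites. The regulatory particle caps the barrel: its lid and base receive ubiquitin and remove it, and the ring of base ATPases unfolds the substrate. In activated lymphocytes, immunoproteasome subunits replace the active beta subunits in part of the cores, and the activator Psme1-Psme2 (PA28) caps cores without the need for ubiquitin.

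Of the known promoter motifs searched, CCGGAA differed most in share between core and regulatory particle genes, and no such difference was tested. Promoters from RefSeq (GRCm38.p6, the assembly of mm10) were matched by symbol for 38 of the 46 genes, among them 11 of the 14 core and 14 of the 17 regulatory particle genes, and 250 bases before each start were searched on both strands. The letters CCGGAA, the core of the sites that ETS factors bind, were found in 10 of 14 regulatory particle promoters (71.4%) and in 1 of 11 core promoters (9.09%, Psma5). They occurred in 24.2% of the promoters of the other tested genes and in 12.2% of all other promoters. CCAAT, the letters bound by NF-Y, occurred in 6 of 11 core promoters (54.5%), 4 of 14 regulatory particle promoters (28.6%) and 37.4% of those of the other tested genes. The antioxidant response element, searched as TGACNNNGC, which factors of the Nfe2l family bind, occurred in 2 of 11 core promoters (18.2%), 2 of 14 regulatory particle promoters (14.3%) and 12.4% of the others. The 150 bases before the start of 3 core and 3 regulatory particle genes follow, 5′ to 3′ on the gene's strand, to show these letters in place; the genes were chosen after the motif counts were known. Capitals mark CCAAT or its complement ATTGG, TGACNNNGC, and CCGGAA or its complement TTCCGG. Psma2 (chr13:14613092-14613241, plus strand), Psma6 (chr12:55384072-55384221, plus) and Psmb6 (chr11:70525207-70525356, plus) encode core subunits, and Psmc2 (chr5:21785125-21785274, plus), Psmd2 (chr16:20651502-20651651, plus) and Psmd4 (chr3:95042615-95042764, minus) encode base subunits.
Psma2: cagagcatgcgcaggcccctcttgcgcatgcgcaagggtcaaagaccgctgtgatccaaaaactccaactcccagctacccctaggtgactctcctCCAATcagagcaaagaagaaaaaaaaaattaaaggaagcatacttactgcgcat
Psma6: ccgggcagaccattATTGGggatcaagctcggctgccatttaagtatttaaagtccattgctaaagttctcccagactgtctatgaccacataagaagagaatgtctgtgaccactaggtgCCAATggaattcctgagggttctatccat
Psmb6: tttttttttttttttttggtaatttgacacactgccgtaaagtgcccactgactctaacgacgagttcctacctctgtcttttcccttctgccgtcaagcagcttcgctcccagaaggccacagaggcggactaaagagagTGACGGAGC
Psmc2: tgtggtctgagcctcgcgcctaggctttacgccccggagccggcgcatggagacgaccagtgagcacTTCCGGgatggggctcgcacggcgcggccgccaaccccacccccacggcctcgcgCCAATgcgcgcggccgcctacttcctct
Psmd2: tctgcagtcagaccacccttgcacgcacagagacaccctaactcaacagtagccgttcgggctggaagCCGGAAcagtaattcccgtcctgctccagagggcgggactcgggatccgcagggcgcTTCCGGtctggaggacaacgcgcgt
Psmd4: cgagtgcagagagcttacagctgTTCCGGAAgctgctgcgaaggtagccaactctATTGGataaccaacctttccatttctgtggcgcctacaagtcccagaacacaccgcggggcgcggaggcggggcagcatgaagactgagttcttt
The ETS letters lie on both strands and overlap in Psmd4, and occur at separate places in Psmd2. Outside the subunits, they were also found upstream of the activators Psme3 and Psme4, of Psmf1, Psmg1, Psmd10 and Psmc3ip. GGGCGG, the GC box, was found in 55.3% of the members' promoters and 59.3% of those of the other tested genes, and CACGTG, the E-box bound by Myc, in 7.89% and 8.76%. The core of the interferon-stimulated response element was found in 7.89% (Psmb3, Psmd4 and Psmd9) and 2.81%, and the gamma-activated site TTCNNNGAA in 2.63% (Psmg1) and 6.14%. The kappa B site was found in 0 of the 38 promoters and in 0.357% of those of the other tested genes. A match describes the letters and does not show that a factor binds there.

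Levels are given in TPM, which divide reads by transcript length and then scale each library to the same total, so a level is a share of the library's transcripts. The 46 genes took 1.30% ± 0.06 of all transcripts in control centroblasts, 1.40% ± 0.06 in mutant centroblasts, 1.12% ± 0.06 in control centrocytes and 1.16% ± 0.04 in mutant centrocytes (SD, n = 5 each). In all 4 groups Psmb1 was the highest and Psma5 the lowest core subunit: in control centroblasts Psmb1 stood at 884 ± 72.8 TPM and Psma5 at 49.3 ± 7.51 TPM, a 17.9-fold range, with a median of 543 TPM over the 14 genes. The 19S genes were closer to each other, from Psmd11 at 112 ± 7.09 TPM to Psmd8 at 506 ± 33.7 TPM, a 4.54-fold range. Over all 20 libraries the highest members were the core subunits Psmb1 (mean 834 TPM) and Psma7 (728 TPM) and the activator subunit Psme1 (697 TPM). The lowest of those tested were the base chaperone Psmd9 (36.6 TPM), Psmf1 (37.6 TPM) and the alpha subunit Psma5 (47.4 TPM). A tested gene had at least 1 TPM in at least 5 libraries, which 44 of the 46 members and 11386 genes in all did. The other two were Psma8, the spermatogenic alpha subunit, with a mean of 0.412 TPM, and Psmb11, the thymic epithelial beta subunit, which was above 0 in 2 libraries only.

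**Figure D1:**
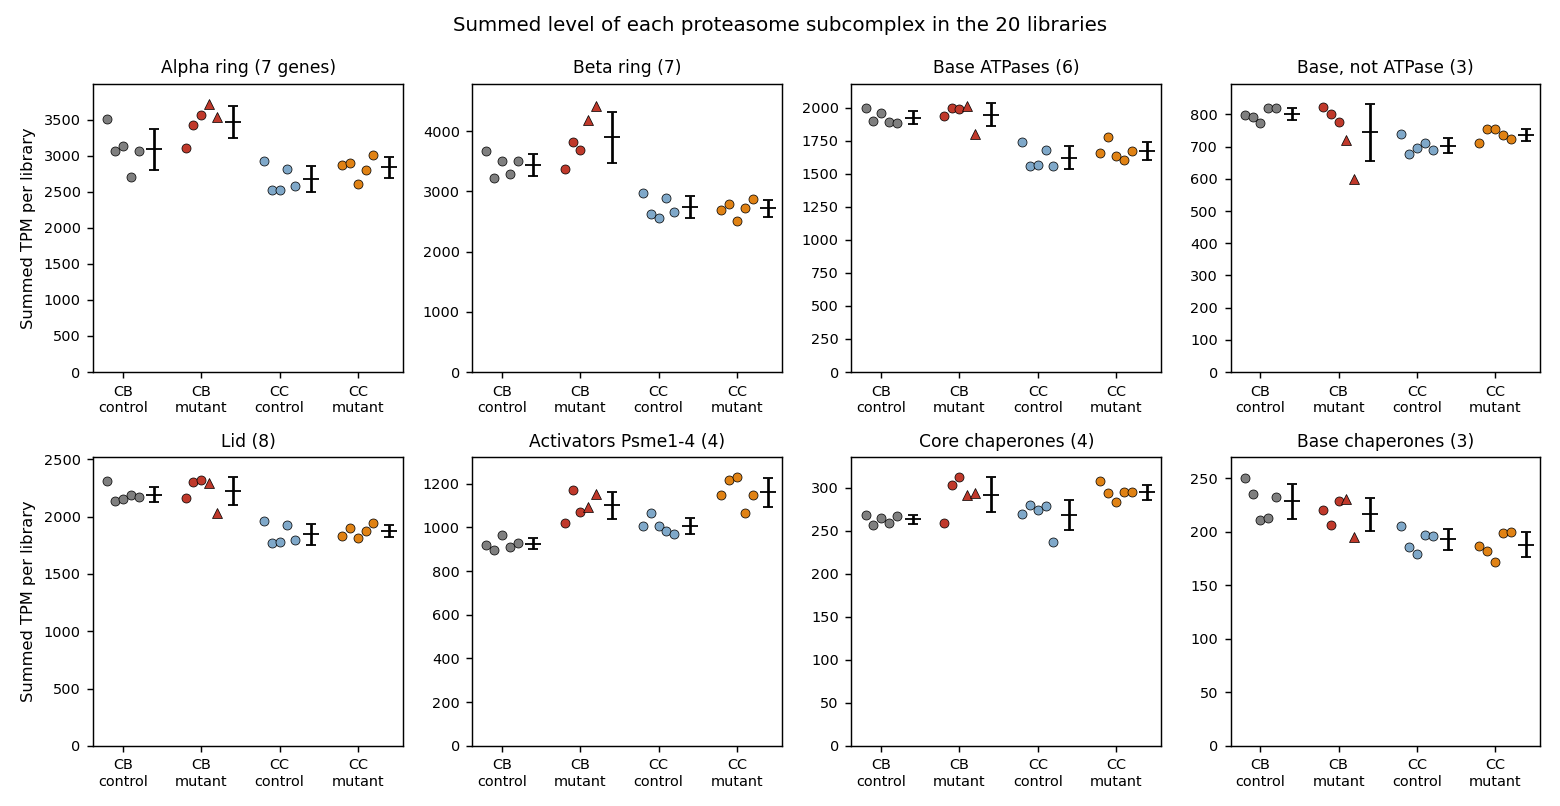
Summed TPM of the genes of each subcomplex (vertical axis, from 0) in each library (points) of the 4 groups (horizontal axis; CB, centroblasts; CC, centrocytes), with the mean and SD beside each group and triangles for mutant centroblast libraries 4 and 5. The alpha ring, beta ring, base ATPases and lid are lower in centrocytes than in centroblasts, and the activator means are higher in the mutants of both gates.

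The libraries expressed the markers of the cells they were labelled as: the B cell genes Cd79a, Cd79b, Ms4a1 and Pax5 were present in every library, with Cd79a at 1667 to 2348 TPM, and the germinal centre gene S1pr2 stood at 247 to 459 TPM. T cell markers (5 genes) summed to at most 5.10 TPM in any library. Libraries 4 and 5 of the mutant centroblasts stood apart: ribosomal protein genes took 12.3% to 16.9% of their transcripts against 7.29% to 9.89% in the other 18 libraries. They also had fewer genes above 0 TPM (12719 to 12895 against 13053 to 14092).

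In the controls, centrocytes had less proteasome mRNA than centroblasts, in the beta ring for 6 of 7 genes. Of the 44 tested members, 21 were called lower in centrocytes and 1 higher (limma on log2(TPM + 1), adjusted p under 0.05). Over all tested genes 30.7% were called, 9.48% lower and 21.2% higher, and the median of all genes was 0.14 on the log2 scale, against -0.18 for the members. In bulk samples a lower share of transcripts, fewer cells of a type and less RNA per cell cannot be told apart. The lower calls took in 10 of the 14 core genes, 6 of 7 in the beta ring and 4 of 7 in the alpha ring, and 7 of the 17 regulatory particle genes. The 6 macrophage and monocyte markers summed to 37.7 to 54.3 TPM in control centroblasts and 91.1 to 151 TPM in control centrocytes, with none at 0, and their part in the result was not tested. Leaving out 1 library at a time gave 13 to 24 lower calls, with 13 without control centrocyte library 3. The shares of all tested genes called in those fits are not given here, so this range is not read as particular to the members. Dividing each library by a median-of-ratios factor moved the median gene by -0.14 in this comparison and gave 29 lower and 0 higher calls, beside 17.7% and 17.9% of all tested genes. All 14 core and all 17 regulatory particle genes lay below the median of all tested genes.

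The 3 catalytic subunits were all called lower. Psmb6, the caspase-like site, stood at 418, 359, 440, 403 and 399 TPM in control centroblasts 1 to 5 and at 344, 294, 298, 329 and 288 TPM in control centrocytes 1 to 5. The groups did not overlap, and the log2 fold change was -0.38 (SE 0.09, adjusted p = 0.0039). Psmb7, the trypsin-like site, was 560 ± 27.7 TPM in centroblasts and 440 ± 45.5 TPM in centrocytes, a log2 fold change of -0.35 (SE 0.07, adjusted p = 9.0e-04). Psmb5, the chymotrypsin-like site and the main target of bortezomib, was 167 ± 13.3 against 137 ± 9.88 TPM, a log2 fold change of -0.28 (SE 0.10, adjusted p = 0.030). The Psmb5 groups also did not overlap, but the call was lost in 5 of the 20 fits that left out a library. Psmb2, the beta ring gene that was not called, had a log2 fold change of -0.18 (adjusted p = 0.050). All 6 called beta ring genes had groups that did not overlap, while the 4 called alpha ring genes overlapped. In all, 16 members had every centrocyte below every centroblast and 1 had every centrocyte above, beside 9.51% and 17% of all tested genes.

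Within the regulatory particle some subunits were called lower and others were not, and the subunits were not tested against each other. The smallest adjusted p-values were those of the base ATPase Psmc3, the lid subunit Psmd13, the ubiquitin receptor Psmd4 and the lid subunit Psmd8. Psmc3 stood at 447, 412, 460, 452 and 429 TPM in control centroblasts and 360, 305, 315, 342 and 316 TPM in control centrocytes. Every centrocyte value was below every centroblast value, with a log2 fold change of -0.43 (SE 0.06, adjusted p = 3.2e-05). Psmd13 was 342 ± 20.9 against 243 ± 15.8 TPM (-0.49, SE 0.08, adjusted p = 5.0e-05), Psmd4 374 ± 24.9 against 288 ± 12.8 TPM (-0.38, SE 0.06, adjusted p = 1.0e-04), and Psmd8 506 ± 33.7 against 380 ± 27.5 TPM (-0.41, SE 0.08, adjusted p = 4.2e-04). Psmc1, Psmc4 and Psmd14, the deubiquitinase of the lid, were also called. The remaining 10 subunits had log2 fold changes from -0.13 to 0.12, the highest of them Psmd11. The 20S genes summed to 6530 ± 443 TPM in control centroblasts and 5418 ± 362 TPM in control centrocytes, and the 19S genes to 4919 ± 108 and 4173 ± 199 TPM.

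The same comparison in the mutants gave a wider spread of values. Of the 44 members, 20 were called lower in mutant centrocytes than in mutant centroblasts and 6 higher, where 61.5% of all tested genes were called, 12.6% lower and 48.8% higher. The groups did not overlap for 18 members that were lower and 4 that were higher, as for 7.91% and 28.7% of all tested genes. Macrophage and monocyte markers summed to 37.2 to 74.0 TPM in mutant centroblasts and 73.1 to 167 TPM in mutant centrocytes. The members' median was -0.15 and that of all genes 0.34. The beta ring again had 6 of 7 genes called lower, with the alpha ring at 4 of 7 and the regulatory particle at 7 of 17. Of the 21 genes called lower in the controls, 19 were also called lower in the mutants (90.5% of the controls' list and 95% of the mutants' list of 20). Psma5 and Psmf1 were called in the controls alone and Psma1 in the mutants alone, which does not show that they differ between genotypes. The zone comparisons of the genotypes share no library, but all 20 libraries share 1 estimate of the spread. After median-of-ratios scaling, which moved the median gene by -0.34 here, 2 members were called higher and 36 lower, beside 29.6% and 28.9% of all tested genes. All 14 core genes and 15 of 17 regulatory particle genes lay below the median of all tested genes.

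Psmb1, a structural beta subunit, had one of the 4 lowest adjusted p-values among the members called lower in the mutants. It stood at 846, 953, 993, 1266 and 1370 TPM in mutant centroblasts 1 to 5 and at 669, 662, 603, 677 and 733 TPM in mutant centrocytes. The groups did not overlap and libraries 4 and 5 were the highest centroblasts, with a log2 fold change of -0.68 (SE 0.10, adjusted p = 2.0e-05). Psmd13 (-0.56, SE 0.08, adjusted p = 3.5e-06), Psmb4 (-0.54, SE 0.07, adjusted p = 5.5e-06) and Psmb6 (-0.59, SE 0.09, adjusted p = 2.2e-05) were the others of the 4 lowest adjusted p-values. Psmb5 fell by 0.59 (SE 0.10, adjusted p = 3.1e-05) and Psmb7 by 0.39 (SE 0.07, adjusted p = 1.1e-04). Without mutant centroblast libraries 4 and 5, 22 members were called lower and 4 higher, beside 14.9% and 35.9% of all tested genes.

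**Figure D2:**
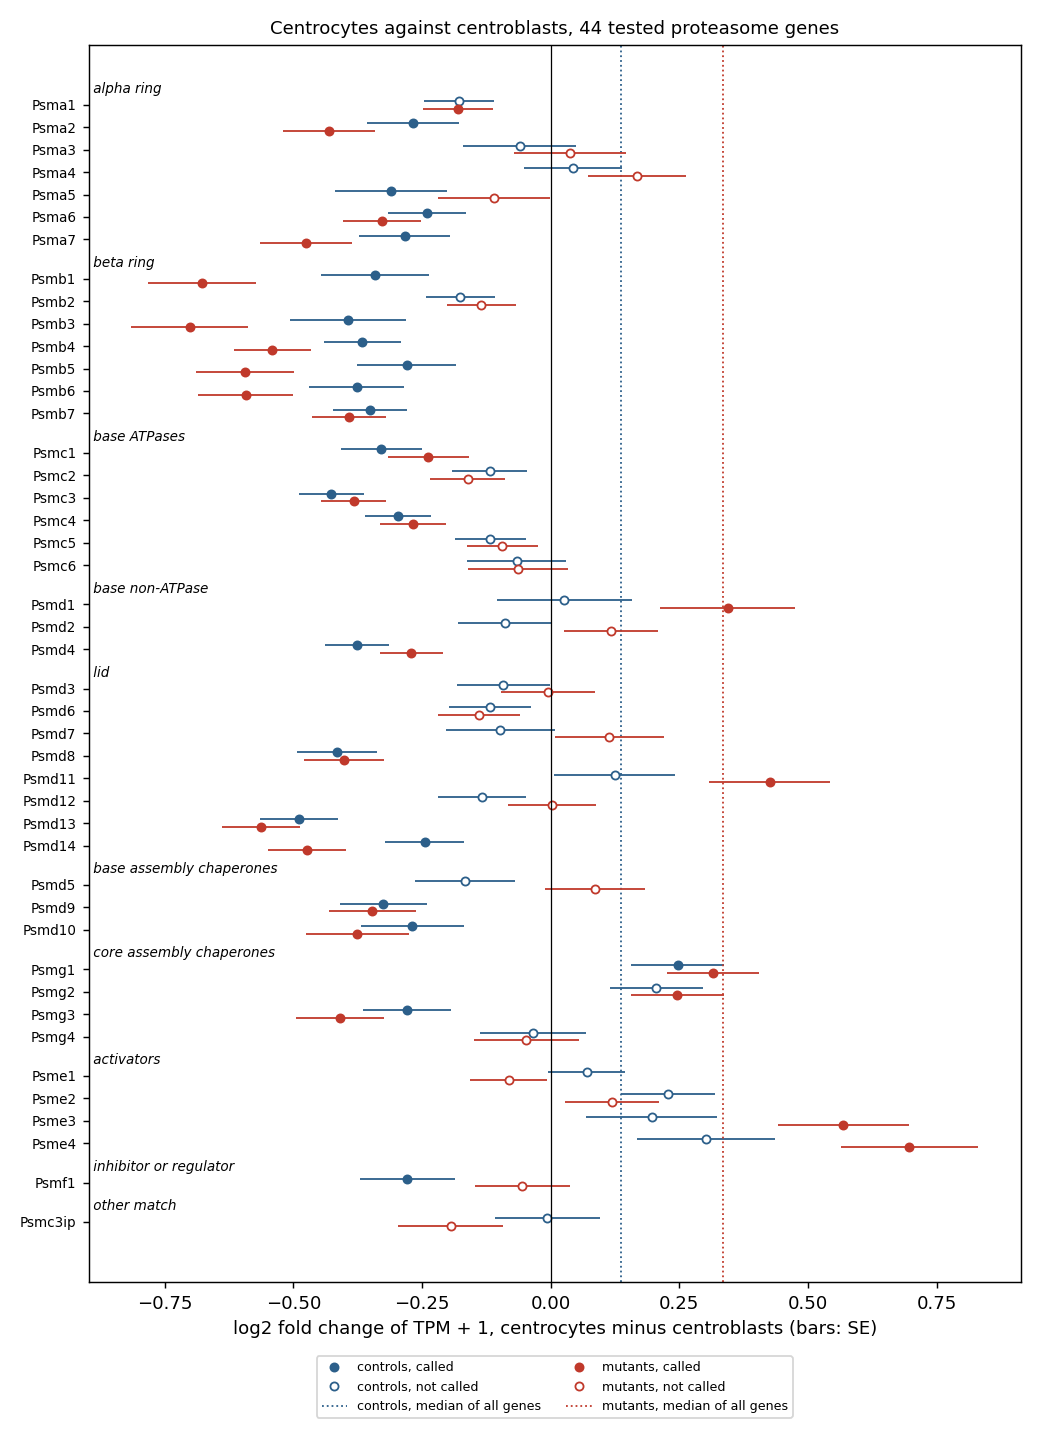
Log2 fold change of TPM + 1 from centroblasts to centrocytes (horizontal axis; bars, SE) for each of the 44 tested genes, grouped by subcomplex, in controls (blue) and mutants (red); filled points are called at adjusted p under 0.05 and dotted lines mark the median of all tested genes. Most beta ring genes lie between -0.28 and -0.70, while Psme3 and Psme4 lie to the right of 0 in both genotypes.

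The assembly chaperones did not move as a group. Psmg1 and Psmg2 (PAC1 and PAC2), which work as a dimer on the alpha ring, had higher means in centrocytes. Psmg1 was 53.7 ± 4.80 TPM in control centroblasts and 64.0 ± 6.48 TPM in control centrocytes (log2 fold change 0.25, SE 0.09, adjusted p = 0.042), and 59.3 ± 6.13 against 73.7 ± 1.85 TPM in the mutants (0.32, SE 0.09, adjusted p = 0.0049). The control call of Psmg1 was lost in 8 of the 20 fits that left out a library. After median-of-ratios scaling the Psmg1 value was 0.11 in the controls and -0.04 in the mutants, neither of them called. Psmg2 had a log2 fold change of 0.21 in the controls (SE 0.09, adjusted p = 0.088) and 0.25 in the mutants (SE 0.09, adjusted p = 0.023). That mutant call was lost without mutant centroblast libraries 4 and 5 (0.18, adjusted p = 0.097), and the value was -0.11 after scaling. Psmg3, the partner of Psmg4 in the dimer PAC3-PAC4, was lower in centrocytes, at -0.28 in controls (SE 0.09, adjusted p = 0.017) and -0.41 in mutants (SE 0.09, adjusted p = 4.1e-04). Psmg4 had log2 fold changes of -0.03 and -0.05, with an SE of 0.10 in each.

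Of the chaperones that build the base, Psmd9 (p27) was lower in centrocytes in controls (-0.32, SE 0.08, adjusted p = 0.0061) and in mutants (-0.35, SE 0.08, adjusted p = 0.0015). Its groups did not overlap in either genotype, at 38.3 to 45.0 TPM in control centroblasts and 29.2 to 35.5 TPM in control centrocytes. Psmd10 (gankyrin) was lower, at -0.27 in controls (SE 0.10, adjusted p = 0.045), a call lost in 11 of 20 fits that left out a library, and at -0.38 in mutants (SE 0.10, adjusted p = 0.0029). Psmd5 (S5b) was not called, at -0.17 (SE 0.10) and 0.09 (SE 0.10). Psmf1 (PI31), which binds the core, was 42.3 ± 4.36 TPM in control centroblasts and 34.6 ± 1.70 TPM in control centrocytes (-0.28, SE 0.09, adjusted p = 0.026). It stood at 37.4 ± 2.44 and 36.1 ± 3.89 TPM in the mutants (-0.05, SE 0.09, adjusted p = 0.62), and the difference between the genotypes, 0.22 (SE 0.13), was not called (adjusted p = 0.41).

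None of the 4 activators was called lower in centrocytes in either genotype on the deposited scale. After median-of-ratios scaling Psme1 was called lower in mutant centrocytes (-0.44, adjusted p = 0.0096), against -0.08 (adjusted p = 0.35) before it. Psme4 (PA200), a nuclear activator, stood at 49.5, 39.4, 36.6, 31.7 and 24.4 TPM in mutant centroblasts and at 59.4, 59.4, 61.1, 57.4 and 53.1 TPM in mutant centrocytes. The groups did not overlap, and the log2 fold change was 0.70 (SE 0.13, adjusted p = 1.8e-04). Psme3 (PA28-gamma), which forms a nuclear activator by itself, stood at 208, 204, 183, 163 and 105 TPM in mutant centroblasts and at 237, 256, 284, 233 and 239 TPM in mutant centrocytes. Its groups did not overlap either, and the log2 fold change was 0.57 (SE 0.13, adjusted p = 7.3e-04). Libraries 4 and 5 were the lowest centroblasts for both genes. Without them the values were 0.47 for Psme4 (adjusted p = 0.0010) and 0.33 for Psme3 (adjusted p = 8.7e-04), and after median-of-ratios scaling 0.35 and 0.21 (adjusted p = 6.2e-04 and 0.030). In the controls Psme4 was 45.9 ± 6.64 against 56.5 ± 3.72 TPM (0.30, SE 0.13, adjusted p = 0.089) and Psme3 201 ± 14.2 against 230 ± 5.77 TPM (0.20, SE 0.13, adjusted p = 0.25). Both were called higher without mutant centroblast libraries 4 and 5, which changes the shared spread (adjusted p = 0.011 for Psme4 and 0.015 for Psme3), and in the fit to the control libraries alone (0.016 and 0.017). The Psme3 control groups did not overlap, which held for 17% of all tested genes in that direction. The lid subunit Psmd11, a scaffold of the lid, was called higher in mutant centrocytes (0.43, SE 0.12, adjusted p = 0.0040). Its value was 0.21 (adjusted p = 0.018) without libraries 4 and 5 and 0.07 (adjusted p = 0.46) after scaling. The base scaffold Psmd1 was called as well (0.34, SE 0.13, adjusted p = 0.028), and this call was lost without libraries 4 and 5 (0.07, adjusted p = 0.40), while the value was -0.01 after scaling.

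The comparison of genotypes asks what the Myd88 L252P allele changes within each gate. In centroblasts 3 of 44 members were called higher in the mutants and 0 lower, where 4.29% of all tested genes were called, 0.905% higher and 3.38% lower. The 8 erythroid markers summed to 2.28 to 10.5 TPM in control centroblasts and 9.24 to 32.0 TPM in mutant centroblasts, with the globin genes Hbb-b2, Hba-a1 and Hba-a2 at 0, and their part in the result was not tested. The 3 called genes were the activator partners Psme1 and Psme2 and the alpha subunit Psma7. Psme1 (chromosome 14, 55578123 to 55581529, plus strand, GRCm38) and Psme2 (chromosome 14, 55587441 to 55591113, minus strand) are neighbours, and their products form the PA28 ring together. Psme1 stood at 606, 582, 646, 586 and 614 TPM in control centroblasts and at 673, 816, 755, 807 and 924 TPM in mutant centroblasts. Every mutant was above every control, and the log2 fold change was 0.38 (SE 0.07, adjusted p = 0.0085). Psme2 stood at 84.7, 70.8, 71.1, 59.3 and 68.5 TPM in controls and at 88.6, 111, 94.4, 93.9 and 99.3 TPM in mutants. Its groups did not overlap either, with a log2 fold change of 0.46 (SE 0.09, adjusted p = 0.0091). Of all tested genes 0.755% had mutants all above controls. Without mutant libraries 4 and 5 the values were 0.30 for Psme1 (adjusted p = 0.017) and 0.46 for Psme2 (adjusted p = 0.010). Both calls held in each of the 20 fits that left out a library and were lost in the fit to the centroblast libraries alone (adjusted p = 0.12 and 0.13). Psme2 has a near-identical copy, Psme2b, and how reads shared by such copies were counted is not given in the sources used here. The same holds for Psma4, Psma5, Psmb3, Psmb5, Psmc1 and Psmd2, each with at least 1 copy of 95% identity or more over at least 50% of the transcript.

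The core genes of mutant centroblasts stood higher on average than those of the controls, and of these 14 genes 1, Psma7, was called. Psma7 was 736 ± 73.7 TPM in controls and 917 ± 119 TPM in mutants, a log2 fold change of 0.31 (SE 0.09, adjusted p = 0.049). Its highest values were those of libraries 4 and 5, at 996 and 1067 TPM. Without them the value was 0.19 (adjusted p = 0.26), and the call was lost in 17 of 20 fits that left out a library. Of the 14 core genes 13 had a positive value, with a median of 0.13, and of the 17 regulatory particle genes 8 did, with a median of -0.01, beside a median of -0.16 over all tested genes. Without libraries 4 and 5 these were 14 of 14 core genes (median 0.10) and 12 of 17 regulatory particle genes (median 0.02), beside -0.02 over all tested genes. Psmb5 had a log2 fold change of 0.29 (SE 0.10, adjusted p = 0.074), Psmb6 0.28 (SE 0.09, adjusted p = 0.074) and Psmb7 0.04 (SE 0.07, adjusted p = 0.69). Without those libraries Psmb5 had 0.17 and Psmb6 0.14. All 14 core genes and 15 of 17 regulatory particle genes lay above the median of all tested genes, and median-of-ratios scaling moved the median gene by 0.18. Psmd5, the base chaperone, was lower in every mutant than in every control (54.9 to 84.7 against 85.5 to 99.5 TPM), as were 2.99% of all tested genes, with a log2 fold change of -0.27 (SE 0.10, adjusted p = 0.089). Psme3 and Psme4 had values of -0.26 (SE 0.13, adjusted p = 0.18) and -0.36 (SE 0.13, adjusted p = 0.095), and of -0.02 (adjusted p = 0.94) and -0.13 (adjusted p = 0.65) without libraries 4 and 5. Leaving out mutant centroblast library 1 gave 9 higher and 2 lower calls among the members. The share of all tested genes called in that fit is not given here, so these counts are not read as particular to the members.

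**Figure D3:**
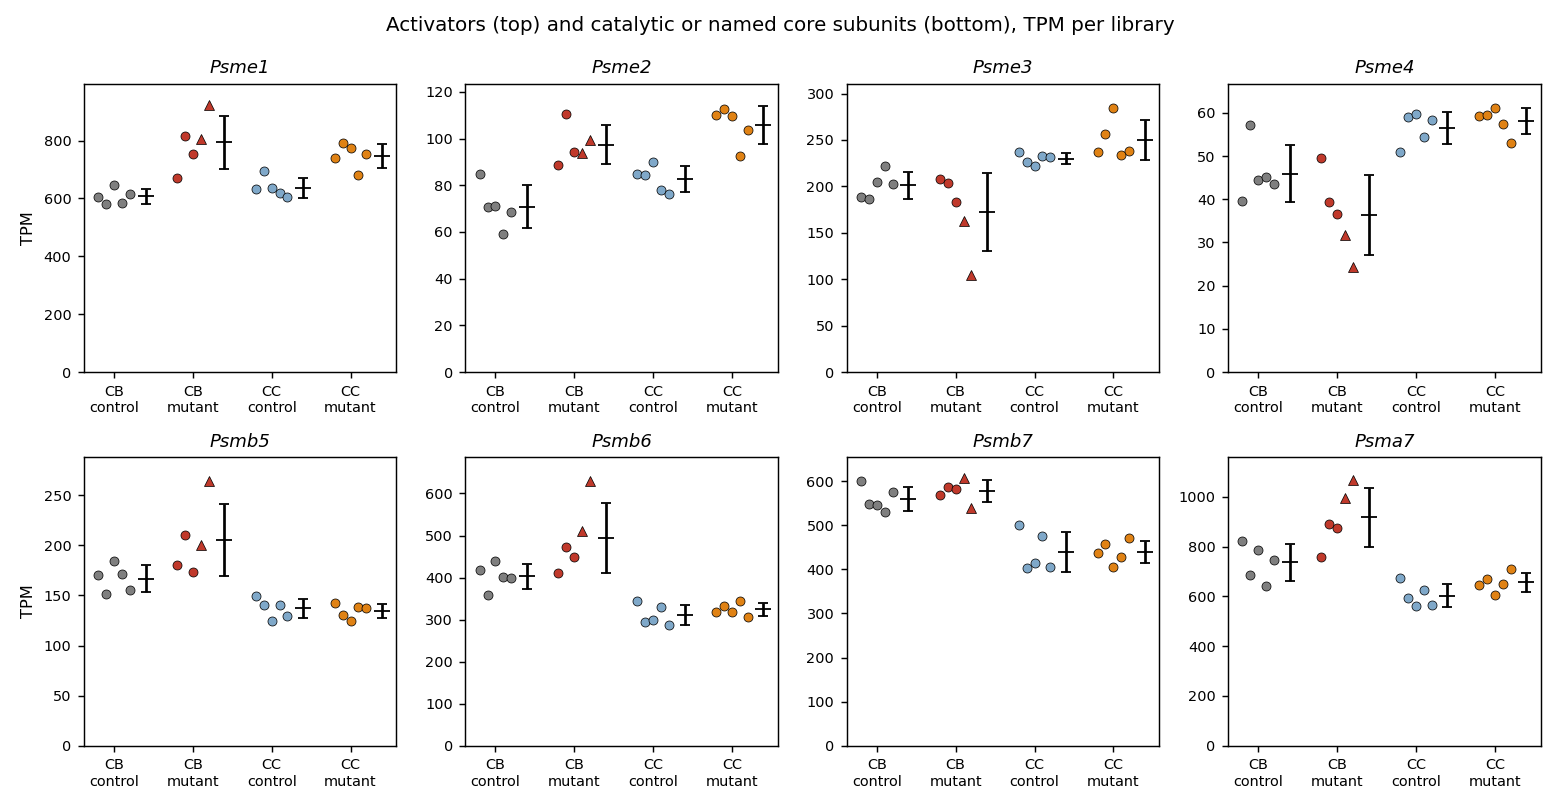
TPM of the 4 activators (top row) and of 4 core subunits (bottom row) in each library, with the mean and SD beside each group, all axes from 0, and triangles for mutant centroblast libraries 4 and 5. Psme1 and Psme2 are higher in the mutant centroblasts than in every control centroblast, and Psme3 and Psme4 are lowest in mutant centroblast library 5.

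In centrocytes no member passed the test, with 0 of 44 called by limma where 1.2% of all tested genes were called in either direction. At an unadjusted p under 0.05, 5 members were higher and 0 lower, beside 6.25% and 3.35% of all tested genes. The smallest adjusted p was that of Psme2, which stood at 84.9, 84.6, 90.0, 78.2 and 76.2 TPM in control centrocytes and at 110, 113, 110, 92.6 and 104 TPM in mutant centrocytes. The groups did not overlap, and the log2 fold change was 0.35 (SE 0.09, adjusted p = 0.065). Psme1 was 638 ± 35.0 TPM in controls and 748 ± 41.6 TPM in mutants (0.23, SE 0.07, adjusted p = 0.18). Fitted to the centrocyte libraries alone, Psme2 (adjusted p = 0.021), Psme1 (0.041) and Psma4 (0.036) were called higher, as were 1.76% of all tested genes. Without mutant centroblast libraries 4 and 5 the centrocyte values stay as they are and the shared spread changes. Psme2 (adjusted p = 0.025) and Psme1 (0.033) were then called higher, as were 2.28% of all tested genes. With the replicate number as a block Psme2 was called (adjusted p = 0.037), beside 1.7% of all tested genes. It was also called in 4 of the 20 fits that left out a library: control centroblast 1 or 4, mutant centroblast 5 or mutant centrocyte 4. After median-of-ratios scaling neither Psme2 (0.32, adjusted p = 0.24) nor Psme1 (0.20, adjusted p = 0.69) was called. Neither was called without the trended and robust variance (adjusted p = 0.088 and 0.27). Psma4, Psma5 and Psmg1 also had mutants all above controls, as did 2.63% of all tested genes. No member had mutants all below controls, beside 1.99% of all tested genes. Erythroid markers summed to 4.88 to 13.8 TPM in control centrocytes and 9.65 to 32.8 TPM in mutant centrocytes. Psma4 was 355 ± 21.3 against 431 ± 33.5 TPM (0.28, SE 0.09, adjusted p = 0.21) and Psma5 39.3 ± 2.65 against 48.6 ± 4.24 TPM (0.30, SE 0.11, adjusted p = 0.27). Psmg1 was 64.0 ± 6.48 against 73.7 ± 1.85 TPM (0.21, SE 0.09, adjusted p = 0.42). The catalytic subunits had log2 fold changes of -0.02 (Psmb5, SE 0.10), 0.06 (Psmb6, SE 0.09) and 0.0025 (Psmb7, SE 0.07).

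**Figure D4:**
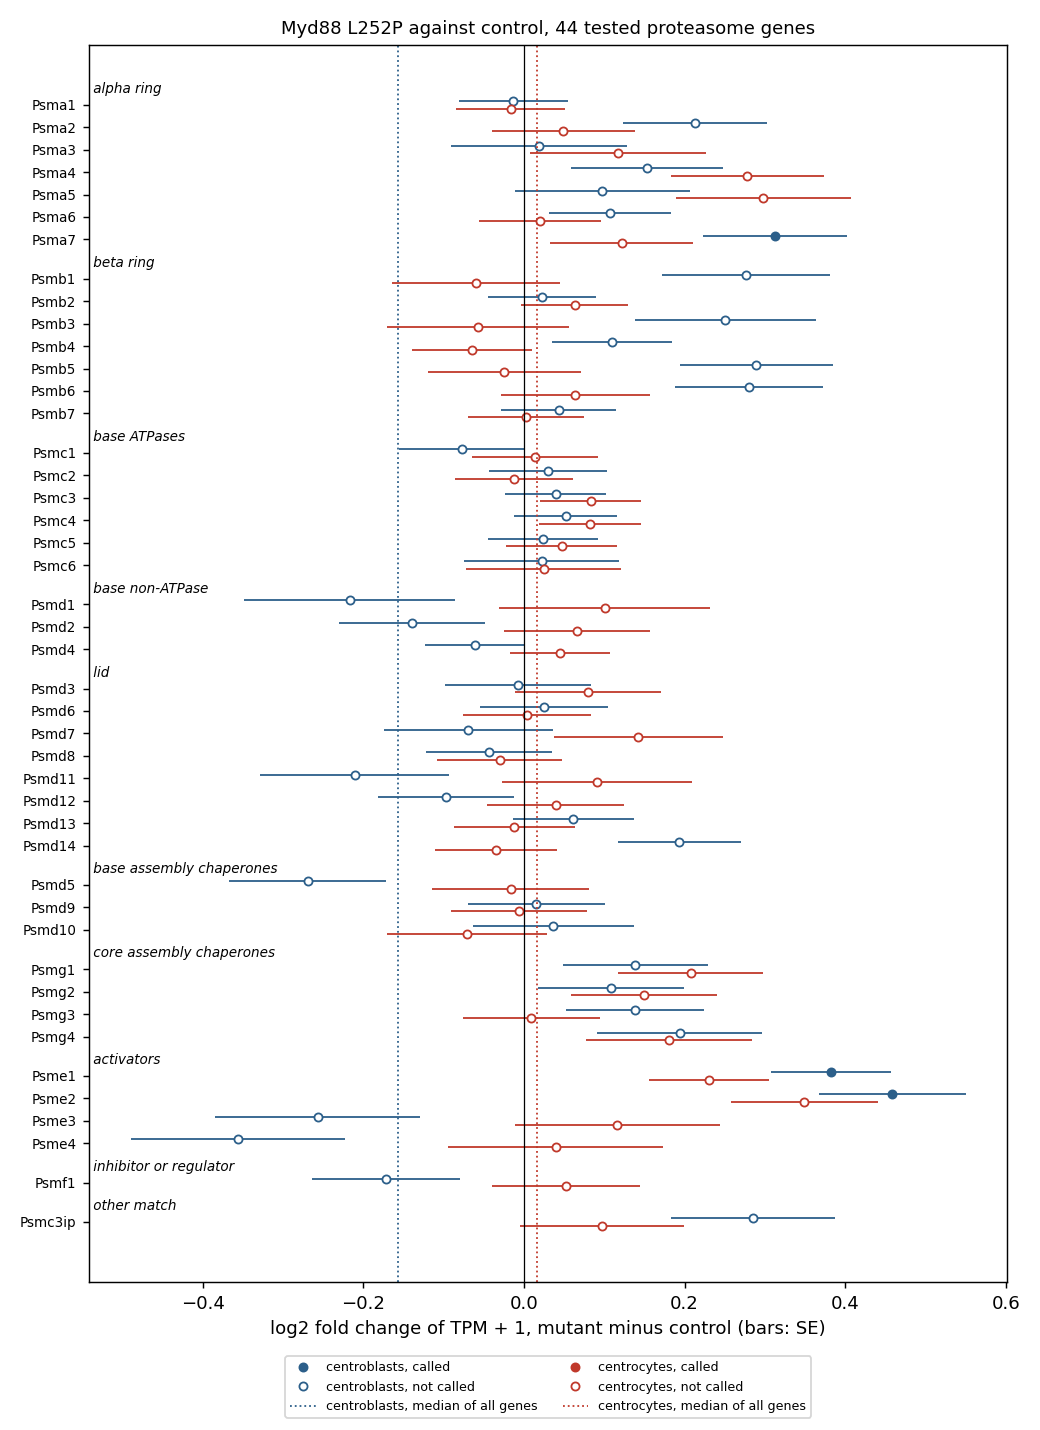
Log2 fold change of TPM + 1 from control to mutant (horizontal axis; bars, SE) for each of the 44 tested genes, grouped by subcomplex, in centroblasts (blue) and centrocytes (red); filled points are called at adjusted p under 0.05 and dotted lines mark the median of all tested genes. Psme1 and Psme2 have the highest centroblast values, 0.38 and 0.46, and Psme4 the lowest, -0.36.

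Whether the genotype difference itself depends on the gate was tested as the centrocyte difference minus the centroblast difference. By limma 0 of 44 members were called, as 0.0176% of all tested genes were. At an unadjusted p under 0.05, 1 member was higher and 3 lower, beside 9.72% and 1.89% of all tested genes, and the smallest adjusted p was 0.40. For Psme1 the difference was -0.15 (SE 0.11) and for Psme2 -0.11 (SE 0.13). Psme4 had 0.40 (SE 0.19), Psme3 0.37 (SE 0.18), Psmb1 -0.34 (SE 0.15) and Psmb5 -0.31 (SE 0.14). Without mutant centroblast libraries 4 and 5 these 4 values were 0.17 for Psme4, 0.14 for Psme3, -0.13 for Psmb1 and -0.20 for Psmb5, none of them called. Psmd14, the other member lower at an unadjusted p under 0.05, had -0.23 (SE 0.11). Its value was -0.29 without those libraries, and it was called in neither fit. The beta ring had a median of -0.22 and the base subunits that are not ATPases 0.21, beside 0.18 for all tested genes. Without those libraries the medians were -0.12, 0.04 and 0.04.

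The balance between core and regulatory particle was close in 3 of the groups and varied more in the mutant centroblasts. The mean TPM of the core genes divided by that of the 19S genes was 1.61 ± 0.08 in control centroblasts, 1.58 ± 0.03 in control centrocytes and 1.58 ± 0.07 in mutant centrocytes. In mutant centroblasts it was 1.60, 1.72, 1.73, 1.91 and 2.18 in libraries 1 to 5. Libraries 4 and 5 had the highest ratios of all 20 libraries, and the mean of libraries 1 to 3 was 1.68, against 1.48 to 1.71 in the control centroblasts. In library 5 the 19S sum was 4438 TPM, below the 4922 to 5101 TPM of the other mutant centroblasts, while its core sum was the highest at 7958 TPM.

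The genotype values in centroblasts also varied with transcript length. Core genes are short, with a median transcript of 1201 bases for the alpha and 899 bases for the beta ring, while the base subunits that are not ATPases have a median of 2961 bases and Psme4 has 6491 bases. Across the 44 members, Spearman's rho between transcript length and the genotype value in centroblasts was -0.72, and -0.61 without libraries 4 and 5. In centrocytes it was -0.10, and in the zone comparisons 0.14 in controls and 0.36 in mutants (0.29 without those libraries). For the centrocyte difference minus the centroblast difference it was 0.58 (0.53 without those libraries). These are correlations across genes, which are not independent replicates. Among all tested genes with a known length, those of up to 1852 bases took 50.5% to 56.2% of the transcripts in mutant centroblast libraries 4 and 5 and 39.3% to 45.6% in the other 18. The part of length in the results was not tested. Psme1 (1112 bases) and Psme2 (962 bases) are among the short members. By genotype they had values of 0.38 and 0.46 in centroblasts and of 0.23 and 0.35 in centrocytes, where neither was called.

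**Figure D5:**
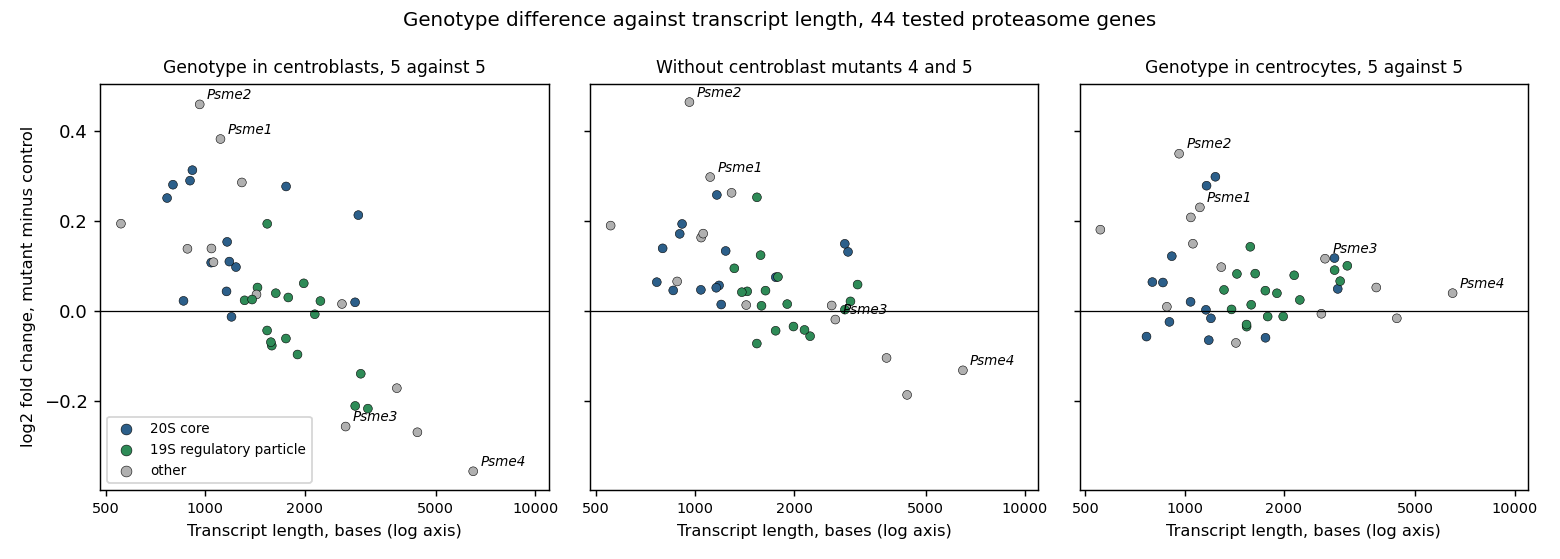
Log2 fold change from control to mutant (vertical axis) against transcript length in bases (horizontal log axis) for the 44 tested genes, coloured by core, regulatory particle or other, in centroblasts with all libraries, in centroblasts without mutant libraries 4 and 5, and in centrocytes. The points slope downward in the left panel (rho -0.72) and less in the middle panel (-0.61), and Psme2 is the highest point in each panel.

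How closely the members moved together was described by the correlation of each gene's log2(TPM + 1) with the mean of the other core genes over the 20 libraries, which fall into 4 groups and share the scaling to a fixed total. For core genes Pearson's r had a median of 0.88, from -0.02 for Psma4 to 0.96 for Psma7, and 0.61 for the deviations from the group means. For the 19S genes the median was 0.68, and 0.21 for the deviations. Psmd13 (0.90), Psmc3 (0.88) and Psmd14 (0.87) were closest to the core, and Psmd11 (-0.68), Psmd1 (-0.49) and Psmd2 (-0.25) the farthest. By the deviations the closest 19S gene was Psmc6 (0.68) and the farthest Psmd3 (-0.45). Psme3 (-0.75) and Psme4 (-0.89) went opposite to the core over these libraries, and Psme1 (0.37) and Psme2 (0.05) lay between. For the deviations the values were -0.40 for Psme3, -0.66 for Psme4, 0.39 for Psme1 and 0.43 for Psme2. Among all other tested genes those most like the core mean were Minos1 (r = 0.98), a subunit of the mitochondrial inner membrane organising complex, Prdx1 (0.98), a peroxiredoxin, Mrpl40 (0.97), a mitochondrial ribosomal protein, and Rfc3 and Rfc4 (0.97 each), subunits of the clamp loader of DNA replication.

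Genes that work with the proteasome were read from the same fit, in which 21.2% of all tested genes were called higher and 9.48% lower in control centrocytes, and 48.8% and 12.6% in mutant centrocytes. No count over these short lists is read as differing from those shares. Of 12 accessory and assembly genes, 1 was called higher in control centrocytes than in control centroblasts and 1 lower, and in the mutants 5 higher and 2 lower. Without mutant centroblast libraries 4 and 5 the mutants had 2 higher and 4 lower. Shfm1, the small lid subunit Sem1, was lower (-0.30 in controls, adjusted p = 0.012, and -0.49 in mutants, adjusted p = 1.0e-04). Zfand5, an activator of the 26S particle, was higher in centrocytes (0.57, adjusted p = 9.6e-04, and 0.68, adjusted p = 5.7e-05). Of the 10 shuttle and segregase genes, 0 were called in controls and 3 higher in mutants (1 higher and 1 lower without libraries 4 and 5). They include Ddi2, the protease that activates Nfe2l1, at 1.08 (adjusted p = 0.0011) and at 0.52 (adjusted p = 0.0052) without those libraries. The shuttle factor Ubqln2 had 0.49 (adjusted p = 0.0079), and this call was lost without them (0.23, adjusted p = 0.13).

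Of the 10 tested regulators of proteasome genes (Nfe2 was not tested), 1 was called higher and 1 lower in control centrocytes, beside 21.2% and 9.48% of all tested genes. In mutant centrocytes 4 were called higher and 1 lower, beside 48.8% and 12.6%. Without libraries 4 and 5 both comparisons had 4 higher and 1 lower. The shares of all tested genes were then 33.4% and 14.3% in controls and 35.9% and 14.9% in mutants. Nfe2l1, the factor that raises proteasome genes when degradation is blocked, stood at 34.0, 39.5, 36.6, 41.1 and 41.1 TPM in control centroblasts and at 50.6, 56.2, 59.1, 53.2 and 57.9 TPM in control centrocytes. The groups did not overlap, and centrocytes were higher (log2 fold change 0.52, SE 0.19, adjusted p = 0.047). In the mutants the value was 1.09 (SE 0.19, adjusted p = 8.5e-05), with mutant centroblasts 4 and 5 lowest at 20.5 and 13.9 TPM, and 0.66 (adjusted p = 2.5e-05) without them. Ngly1, the glycanase that processes Nfe2l1, was lower (-0.39, adjusted p = 0.0091) in control centrocytes, and Mafk, a binding partner of Nfe2l1, was higher (0.75, adjusted p = 2.3e-04) in mutant centrocytes.

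Of the 6 ubiquitin and ubiquitin-activating enzyme genes, 2 were called higher and 1 lower in control centrocytes, beside 21.2% and 9.48% of all tested genes. In mutant centrocytes 2 were called higher and 2 lower, beside 48.8% and 12.6%. Uba6, an activating enzyme, was higher (0.63, adjusted p = 0.0053, and 1.04, adjusted p = 1.9e-05), as was the fusion gene Rps27a in controls (0.42, adjusted p = 0.0091), a call lost after median-of-ratios scaling (0.28, adjusted p = 0.12). By genotype none of these 4 lists had a called gene in either gate. The immunoproteasome genes that the naming rule left out were read the same way. Psmb10 (0.48, SE 0.09, adjusted p = 0.0057) and Psmb9 (0.39, SE 0.11, adjusted p = 0.040) were called higher in mutant centroblasts, and Psmb8 was not (0.18, SE 0.07, adjusted p = 0.096). In centrocytes the values were 0.29, 0.32 and 0.14 for Psmb10, Psmb9 and Psmb8, none called. For Psmb9 and Psmb10 every mutant centrocyte was above every control centrocyte, as for 2.63% of all tested genes. Both were called there without mutant centroblast libraries 4 and 5, which changes the shared spread (adjusted p = 0.026 for Psmb9 and 0.015 for Psmb10). Neither was called there after median-of-ratios scaling (adjusted p = 0.18 and 0.54). From centroblasts to centrocytes the 3 immunoproteasome genes had values of -0.03 to -0.12 in controls, none called. In mutants the values were -0.16 to -0.21, and Psmb8 (adjusted p = 0.038) and Psmb10 (adjusted p = 0.041) were called lower. Without libraries 4 and 5 the mutant zone values were -0.24 for Psmb8 (adjusted p = 0.0023), -0.35 for Psmb9 (adjusted p = 0.0038) and -0.13 for Psmb10 (adjusted p = 0.17), and Psmb8 was called higher by genotype in centroblasts (0.26, adjusted p = 0.019).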

How the data were processed

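RNA from 20 libraries was prepared with Illumina TruSeq stranded mRNA kits, per the labels' protocols. STAR and mm10 are named in the submitters' processing notes, and no source used here gives the counter or annotation. The authors deposited 1 TPM value per gene symbol and library. TPM keeps no sequencing depth, so the depth and counting error of a value are unknown. No 2 libraries held identical values.

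TPM were transformed as log2(TPM + 1), so fold changes of low genes are understated. A minimum of 1 TPM in 5 or more libraries left 11386 genes, which were fitted with limma 3.58.1 in R 4.3.3 (4 group means, 16 residual degrees of freedom, trended and robust variance, two-sided), with Benjamini-Hochberg adjustment over all of them and calls at 0.05. The fit was also run on simulated data with independent libraries and the same spread in every group. That check does not cover libraries that stand apart or deviate together. Genes named were the catalytic subunits, activators, Psmf1 and chaperones, up to 4 called members per direction and comparison, the 3 highest and lowest, the untested, up to 2 called genes per pathway list, and the 5 genes most like the core mean. Psmb2, the 3 other called 19S genes and those with extreme correlations were added after their values were seen. The members and lists were chosen with earlier results of these data known. Same-numbered libraries of the 2 gates deviated together in 4 of 5 pairs in each genotype. The mean correlation of their deviations was 0.16 in controls and 0.17 in mutants, against -0.04 for other numbers in both. For same-numbered centrocytes of the 2 genotypes it was 0.11. Whether such libraries share a mouse or a batch is not stated. The main fit did not pair them, so its p-values leave this likeness out, and a replicate block was fitted as an alternative. Alternatives were other pseudocounts, filters and scaling, no trend, a replicate block, the libraries of 1 comparison alone, and left-out libraries. Transcript lengths, coordinates and near-identical copies came from GENCODE on GRCm38.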

Additional observations from a re-analysis of the deposited data

Results flagged for a closer look

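Within groups of 5, a library was set apart where its distance to the nearest other value exceeded 0.71 of the group's range. This held for 10 of 184 gene groups (5.43%) and 3 of 44 summed groups, and chance sets apart about 1 in 20. Psma1 stood at 472.1 TPM in mutant centrocyte 3, below 517.2 to 530.9 TPM in the others. Psmb11 was listed at 0.0464 TPM in control centroblast 1 and 0.130 TPM in mutant centroblast 4 and at 0 elsewhere. Psmc3ip stood at 55.8 TPM in mutant centroblast 1 (others 65.2 to 68.7) and Psmd14 at 586 TPM in mutant centroblast 3 (others 445 to 481). Control centrocyte 1 was the highest of its group for Psmd3 (166 TPM, others 150.1 to 154.5) and Psmd4 (311 TPM, others 281 to 283). Psmd5 was lowest in mutant centroblast 5 (54.9 TPM, others 77.3 to 84.7). Psmg3 was highest in control centrocyte 3 (71.4 TPM, others 62.3 to 64.4) and Psmg4 in control centroblast 5 (77.5 TPM, others 62.6 to 65.3). The 19S sum was highest in control centroblast 1 (5106 TPM, others 4827 to 4897) and lowest in mutant centroblast 5 (4438 TPM, others 4922 to 5101). The core chaperones summed to 237 TPM in control centrocyte 5, below 269 to 280.1 TPM in the others.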

How the results depend on the processing

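Of the 51 called member results, 32 kept their call in every alternative fit. Counting each called result under each alternative gave 1479 cases: 1381 kept call and direction, 95 kept the direction only and 3 turned. Other filters, no trend, the replicate block and a comparison's own libraries leave the fold change as it is. So does leaving out a library outside the comparison, and these cases could not turn. Genotype in centroblasts: 3 members called, 0 in the fit to those libraries alone (0.0878% of all tested genes higher, 0.123% lower). After median-of-ratios scaling 4 were called higher and 0 lower, beside 2.51% and 3.13% of all tested genes. These 4 were Psme1, Psme2, Psmd14 (adjusted p = 0.035) and Psmc3ip (0.048), while Psma7 (0.065) was lost. With a library left out 2 to 11 were called. Without mutant centroblast 1 these were 9 higher and 2 lower, with no share of all genes given for that fit. Genotype in centrocytes: 0 called, and 0 after scaling. There was 1 higher call with the replicate block (1.7% of all tested genes) and 2 without mutant centroblast libraries 4 and 5 (2.28%). There were 3 with the centrocyte libraries alone (1.76%), and 0 to 1 with a library left out. For the controls' zone comparison, the main fit had 1 higher call, beside 21.2% of all tested genes. This became 0 after median-of-ratios scaling (17.9% of all tested genes) and 5 without mutant centroblast libraries 4 and 5 (33.4%). It became 4 in the fit to its own libraries (32.2%) and 0 to 4 with a library left out. Its 21 lower calls (9.48% of all tested genes) became 29 after scaling (17.7%) and 24 without those 2 libraries (14.3%). Its calls in all ran from 13 to 28 with a library left out (13 to 24 lower). For the mutants' zone comparison there were 6 higher and 20 lower calls, beside 48.8% and 12.6% of all tested genes. They became 2 and 36 after scaling, beside 29.6% and 28.9%. The calls in all ran from 23 to 29 with a library left out (4 to 7 higher, 19 to 24 lower). For no comparison is the share of all tested genes given for the fits that left out a library. Those ranges are therefore not read as particular to the members. The difference had 0 calls in each fit. Scaling turned Psme1 in the controls' zone comparison (-0.0726) and, in the mutants', Psmd1 (-0.0116), Psme2 (-0.236), Psmg1 (-0.0371) and Psmg2 (-0.107), and Psme1 turned to 0.00316 in the mutants without libraries 4 and 5. The cause was not tested. The replicate block gave 2 genotype calls in centroblasts (Psme1 and Psme2, beside 1.45% of all tested genes called higher) and 0 for the difference. It gave 26 zone calls in mutants, all 26 of them called without it, where 50.3% of all tested genes were called higher and 12.8% lower. In the controls' zone comparison it gave 21, where 24% of all tested genes were called higher and 9.72% lower. Of these 21, 20 were called without it: Psmg1 (adjusted p = 0.054) and Psmd10 (0.051) were lost and Psme2 (0.048) was called.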
